A study of Mus musculus with 3 samples.

Results

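Polycomb repressive complexes keep genes silent through histone marks, and 10 of their subunit genes were followed here in splenic tumours of p53-haploinsufficient mice. The members are a list of genes: Ezh1, Ezh2, Eed, Suz12 and Jarid2 of Polycomb repressive complex 2 (PRC2), and Bmi1, Rnf2, Ring1, Cbx7 and Cbx8 of Polycomb repressive complex 1 (PRC1). Every non-control probe whose RefSeq transcript belongs to these genes was taken, which gave 19 of 56605 probes for 10 of 22911 named genes. All 19 were well above background on all 3 arrays, so each member was measured in each tumour.

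Cy3-labelled RNA of each tumour was measured on 1 Agilent mouse expression array. The control was 1 tumour of genotype p53+/- (the control tumour), in which 1 copy of the p53 tumour suppressor gene is lost. It was set against 2 tumours of genotype LSD1 × p53+/-, numbered 2 and 3 in the labels (LSD1 tumours 2 and 3). All 3 samples carried p53+/-, were male and were 10 weeks old, and the cells were not treated. LSD1, the product of Kdm1a, removes methyl groups from histones. Left unstated in the labels are the nature of the LSD1 allele or transgene, any promoter or cell type that drives it, whether 2 and 3 name mice or lines, and whether animals were pooled. The labels give the tissue as splenic tumour and the growth protocol as isolated splenic cells.

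PRC2 places methyl groups on lysine K27 of histone H3. Ezh1 and Ezh2 encode its alternative catalytic subunits, Suz12 the scaffold, Eed the subunit that binds the mark already made, and Jarid2 a cofactor that recruits and stimulates the complex. In blood cells Ezh2 is typical of dividing cells and Ezh1 of resting ones. PRC1 attaches ubiquitin to histone H2A: Rnf2 and Ring1 encode its ligases, Bmi1 their partner, and Cbx7 and Cbx8 alternative readers of the PRC2 mark. The best known target of both complexes is the Cdkn2a locus, which encodes cell cycle inhibitors.

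Upstream sequences are shown for the 4 PRC2 subunit genes each of whose probes had 1 sign of difference across the pair of LSD1 tumours: Ezh2, Suz12 and Eed, which were higher, and Ezh1, which was lower. Jarid2, whose probes were also both lower, is not shown because its 2 probes differ widely in size. Each sequence holds the 250 bases before the start of the gene, 5′ to 3′ on the gene's strand, from RefSeq on GRCm38.p6. Ezh2 lies on the minus strand of chr6:47595031-47595280, Suz12 on the plus strand of chr11:79992856-79993105, Eed on the minus strand of chr7:89980977-89981226 and Ezh1 on the minus strand of chr11:101226464-101226713. Capitals mark matches on either strand to a CCAAT box (CCAAT), an E2F-like site (TTNNCGC, with C or G at each N) or a cell cycle homology element, CHR (TTNGAA, with T or C at N).
Ezh2: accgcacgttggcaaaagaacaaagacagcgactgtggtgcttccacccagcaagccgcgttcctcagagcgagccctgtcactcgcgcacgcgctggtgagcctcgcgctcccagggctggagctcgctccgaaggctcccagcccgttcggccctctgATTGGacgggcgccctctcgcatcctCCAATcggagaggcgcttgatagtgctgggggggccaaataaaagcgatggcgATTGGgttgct
Suz12: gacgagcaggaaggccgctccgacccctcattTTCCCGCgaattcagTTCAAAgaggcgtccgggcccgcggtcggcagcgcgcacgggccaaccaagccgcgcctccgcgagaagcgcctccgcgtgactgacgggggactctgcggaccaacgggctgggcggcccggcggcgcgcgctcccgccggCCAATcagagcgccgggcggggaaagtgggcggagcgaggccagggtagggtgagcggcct
Eed: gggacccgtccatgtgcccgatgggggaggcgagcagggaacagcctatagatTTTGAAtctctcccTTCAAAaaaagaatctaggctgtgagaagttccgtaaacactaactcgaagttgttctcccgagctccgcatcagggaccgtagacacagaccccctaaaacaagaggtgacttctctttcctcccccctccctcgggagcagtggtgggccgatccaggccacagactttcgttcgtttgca
Ezh1: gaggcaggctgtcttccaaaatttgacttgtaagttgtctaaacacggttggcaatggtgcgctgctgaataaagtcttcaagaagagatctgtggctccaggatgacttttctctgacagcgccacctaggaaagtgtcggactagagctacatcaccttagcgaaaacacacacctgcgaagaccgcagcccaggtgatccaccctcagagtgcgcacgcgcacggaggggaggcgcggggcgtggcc

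Ezh2 held 3 CCAAT matches, with their first bases 90, 64 and 11 bases before the start, and no match to the E2F-like or CHR motifs in this window. Suz12 held 1 match to each motif, and Eed 2 CHR matches 197 and 183 bases before the start. Ezh1 held none of the 3 motifs. In these 4 windows no match overlapped another. Over all 10 members, whose windows were all found (11 windows, Jarid2 having 2), CCAAT occurred in 5 genes, the CHR in 3 and the E2F-like motif in 1. Of 32851 promoter windows of the same length, 33.8% held a CCAAT match, 17.1% a CHR and 7.89% an E2F-like site. The windows of Ezh2, Suz12, Eed and Ezh1 had 63.6%, 73.6%, 54.4% and 55.2% G and C bases, against a median of 52.4% over all windows.

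The values are relative signals, that is, processed signal divided by the array's 75th percentile, and their differences are in log2 units, where 1 is 2-fold. The scanner software gave each signal of a member an error of between 10.0% and 17.5%, which amounts to between 0.20 and 0.30 log2 for the difference between a tumour and the control tumour. It is called the scan error here, and it does not cover labelling or the spread between animals. A level is compared only with the same probe on another array. Slide 1 and scan 1 held the control tumour and LSD1 tumour 3, and slide 2 and scan 2 LSD1 tumour 2. Between 51.5% and 55.6% of non-control spots were well above background, and no spot was saturated. Repeated spots of 1 probe had a median SD of between 0.0387 and 0.0413 log2 within an array. Kdm1a itself stood at 0.65 and 0.22 log2 and Trp53 at -0.59 and -0.30 from the control tumour, in LSD1 tumours 2 and 3. These are bulk samples, in which fewer cells of a type and less RNA per cell cannot be told apart.

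By the probe with the highest mean signal for each gene (its leading probe), 4 of the 10 members were higher in both LSD1 tumours (Ezh2, Eed, Suz12 and Bmi1), 4 were lower in both (Ezh1, Jarid2, Ring1 and Cbx7), and Rnf2 and Cbx8 differed in sign between the LSD1 tumours. The 15240 genes tested are those that reached the background mark on 1 array or more. Both LSD1 tumours were higher for 38.9% of them and lower for 27.8%, so the split of the members is near the background. Among the 12812 genes above background on all 3 arrays, as the members were, the shares were 40.6% and 26.4%. The split of all genes depends on the scaling: the authors' value table had 23.3% higher and 42.7% lower, against 30.5% and 35.5% with the percentile taken over probes detected on all arrays. The members' median differences were 0.36 log2 in LSD1 tumour 2 and -0.16 in LSD1 tumour 3, against 0.05 and 0.16 for all genes tested. At least 2-fold higher in both was 1 member, Ezh2 (background 3.48%), and at least 2-fold lower in both were 0 members (background 5.38%). A gap of 2-fold or more separated LSD1 tumour 2 from LSD1 tumour 3 for 1 member, Cbx8 (background 25.1%). Of the 12812 genes, 3.49%, 3.25% and 19.3% met these 3 rules. In the authors' value table Ezh2 stood 1.84-fold and 2.16-fold higher and so missed the 2-fold mark, while Ezh1 (2.58-fold and 2.15-fold) and Cbx7 (2.27-fold and 4.72-fold) were past it on the lower side. Of the 19 member probes, 10 lay above and 6 below the control tumour on both arrays, beside 36.6% and 32.2% of the 32889 probes tested. Of the member probes, 2 were at least 2-fold higher in both (background 3.63%), 0 at least 2-fold lower (background 7.31%) and 2 at least 2-fold apart (background 25.0%).

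The genotypes were compared across all tested probes with limma. No probe passed an adjusted p of 0.05: 0 of 32889 (0.0%), with 1491 at an unadjusted p under 0.05 and again 0 called with trend and robust settings. None of the 19 member probes had an unadjusted p under 0.05, and their adjusted p ran from 0.892 to 0.997 in limma. With 1 residual degree of freedom, the fit takes the lone control tumour to vary like the LSD1 tumours. Its standard errors for members, between 0.49 and 1.0 log2, leave intervals about 3 log2 units wide or more. An exact permutation test of 1 array against 2 cannot go below p = 0.333. The differences below are therefore descriptions of 3 tumours.

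**Figure D1:**
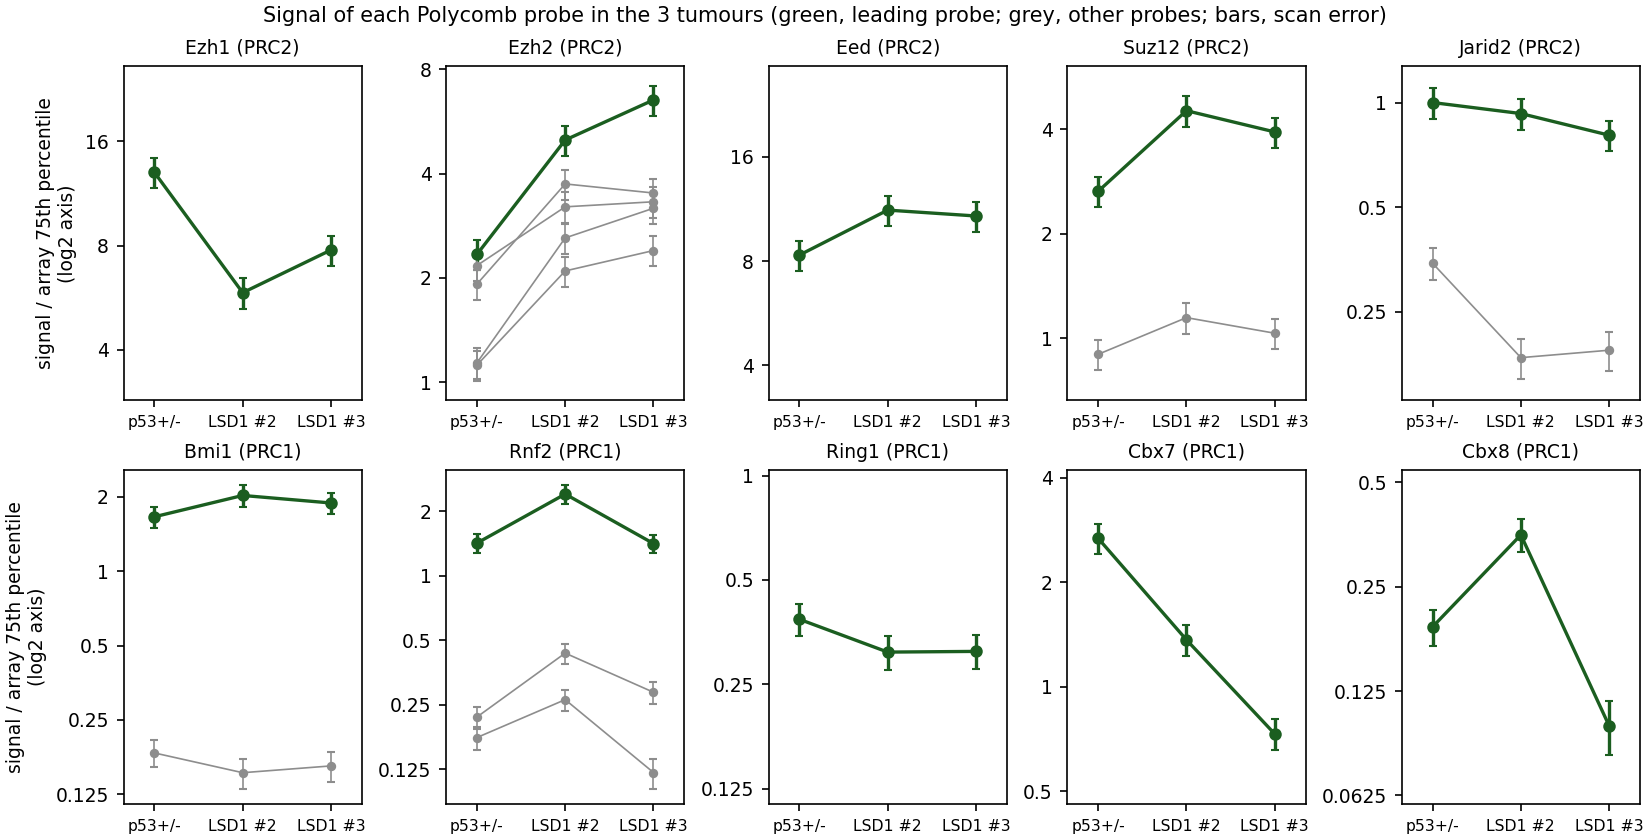
Relative signal (signal over the array's 75th percentile, log2 axis) of every probe of the 10 Polycomb genes in the p53+/- tumour and LSD1 tumours 2 and 3. Green points are the leading probe, grey points the other probes, bars the scan error, and lines join the values of 1 probe; levels of different probes are not comparable. All 5 Ezh2 probes are higher in both LSD1 tumours, Ezh1 and Cbx7 are lower in both, and Cbx8 is highest in LSD1 tumour 2 and lowest in LSD1 tumour 3.

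Among the catalytic subunits, Ezh2 was higher and Ezh1 lower in both LSD1 tumours. The leading Ezh2 probe, A_55_P2041397, read 2.34 in the control tumour, 5.0 in LSD1 tumour 2 and 6.52 in LSD1 tumour 3. Both LSD1 tumours thus lay above the control tumour, by 2.14-fold and 2.79-fold (mean difference 1.29 ± 0.52 log2, limma SE; 95% interval -0.29 to 2.86, adjusted p = 0.892). The 5 Ezh2 probes name the same RefSeq transcript, so they are repeat readings of 1 gene and not replicates. A_51_P248067 gave nearly the same size, with 1.14 in the control tumour, 2.61 in LSD1 tumour 2 and 3.18 in LSD1 tumour 3. A_55_P2619322 read 1.12, 2.10 and 2.40 in the same order. A_55_P2619337 read 1.92, 3.73 and 3.52, and here LSD1 tumour 2 was the higher of the pair by less than the scan error. The smallest differences came from A_55_P2619332, with 2.17, 3.21 and 3.32. Across the 5 probes the excess over the control tumour ran from 1.48-fold to 2.29-fold in LSD1 tumour 2 and from 1.53-fold to 2.79-fold in LSD1 tumour 3, and by every probe it was over 2 scan errors in both. With 2 of the 5 probes it reached 2-fold in both tumours. Among the 12812 genes above background on all 3 arrays, 3.25% had a higher mean difference than the leading Ezh2 probe.

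Ezh1 has 1 probe, A_55_P2082869, which read 13.0 in the control tumour, 5.85 in LSD1 tumour 2 and 7.77 in LSD1 tumour 3. Both LSD1 tumours lay below the control tumour, by 2.22-fold and 1.67-fold (mean difference -0.95 ± 0.53 log2, limma SE; 95% interval -2.54 to 0.64, adjusted p = 0.892). Of the genes above background on all 3 arrays, 6.7% had a lower mean difference. The ratio of the Ezh2 to the Ezh1 signal within an array does not depend on the factor by which the array is scaled. Relative to the control tumour it was higher by 4.75-fold (LSD1 tumour 2) and 4.66-fold (LSD1 tumour 3). Taken with the Ezh2 probe that differed least, the ratio was still higher by 1.71 and 1.35 log2. With quantile normalization the ratio of the leading probes was higher by 2.42 log2 in both tumours, and with normexp background correction by 2.12 and 2.14.

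Genes of the cell cycle were higher alongside Ezh2. Of a list of 30 genes of S phase and mitosis, 28 were higher in both LSD1 tumours and none lower in both, where 38.9% of all genes were higher in both. Their median differences were 0.96 and 1.63 log2. Their summed relative signal was 282 in the control tumour, 456 in LSD1 tumour 2 and 813 in LSD1 tumour 3, the same order as for the leading Ezh2 probe. By leading probes, in LSD1 tumours 2 and 3, the mitotic kinase gene Ttk was higher by 3.77-fold and 4.81-fold and the kinase gene Cdk1 by 2.64-fold and 4.25-fold. The replication gene Cdc45 was higher by 2.80-fold and 4.76-fold, and Gins2 by 3-fold and 3.51-fold. The least of the other Ttk probes gave 1.39-fold and 3.41-fold. By its leading probe, the Ezh2 difference exceeded the median of the list by 0.14 log2 in LSD1 tumour 2. It was below that median by 0.16 log2 in LSD1 tumour 3 (-0.16). By the larger of its 2 distances, no other member was nearer to that median, again by leading probes. The nearness depends on the probe: A_51_P248067 stood at 1.20 and 1.48 log2, near the leading probe, but A_55_P2619332 at 0.56 and 0.61, below both medians. The part of the cell cycle genes in the Ezh2 result was not tested.

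By leading probe, the scaffold and reader subunits differed less than Ezh2. Suz12 read 2.65 in the control tumour, 4.53 in LSD1 tumour 2 and 3.93 in LSD1 tumour 3 by its leading probe A_51_P214796. Both LSD1 tumours were above the control tumour, by 1.71-fold and 1.48-fold (mean 0.67 ± 0.50 log2, limma SE; adjusted p = 0.892). The other Suz12 probe, A_52_P302203, read 0.899, 1.15 and 1.03, and its difference in LSD1 tumour 3 was within the scan error and turned to -0.16 log2 in the authors' value table and to -0.03 with the percentile taken over detected probes. Eed, with the single probe A_55_P2039611, read 8.32 in the control tumour, 11.2 in LSD1 tumour 2 and 10.8 in LSD1 tumour 3. The LSD1 tumours were 1.35-fold and 1.30-fold higher, which is close to 2 scan errors, and for LSD1 tumour 3 the direction turned with quantile normalization (-0.03 log2). The ratio of the leading Ezh2 signal to that of Eed within an array was greater than in the control tumour by a factor of 1.59 (LSD1 tumour 2) and 2.15 (LSD1 tumour 3). For the ratio to Suz12 the factors were 1.25 and 1.88. With the Ezh2 probe that differed least, the ratio to Suz12 stood at -0.21 and 0.04 log2, so that unequal change of Ezh2 and Suz12 depends on the probe.

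The 2 Jarid2 probes name different transcripts and gave different sizes. A_52_P370203, for NM_021878, read 1.0 in the control tumour, 0.932 in LSD1 tumour 2 and 0.808 in LSD1 tumour 3, so that LSD1 tumour 2 was within the scan error of the control tumour. A_55_P2738022, for NM_001205043, read 0.345, 0.184 and 0.194. It was dim, with scan errors of 13.0% and 12.9% in LSD1 tumours 2 and 3. Less the all-gene medians, its differences were -0.96 and -0.99 log2, and with normexp background correction -0.55 and -0.64. By this probe both LSD1 tumours were lower, by 1.87-fold and 1.78-fold (mean -0.87 ± 0.49 log2, limma SE; adjusted p = 0.892). All 8 probes of Ezh2, Eed and Suz12 were thus higher in both LSD1 tumours and all 3 probes of Ezh1 and Jarid2 lower in both, with the exceptions by setting given above. Of the 8, 5 are repeat readings of Ezh2, and the genes are grouped here by their sign. Of all probes tested, 36.6% were higher and 32.2% lower in both. Between the LSD1 tumours no PRC2 probe was 2-fold apart, beside 25.0% of all probes tested. Of genes above background on all 3 arrays, as these probes were, the share was 19.3%. The 11 PRC2 probes cover 5 genes.

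**Figure D2:**
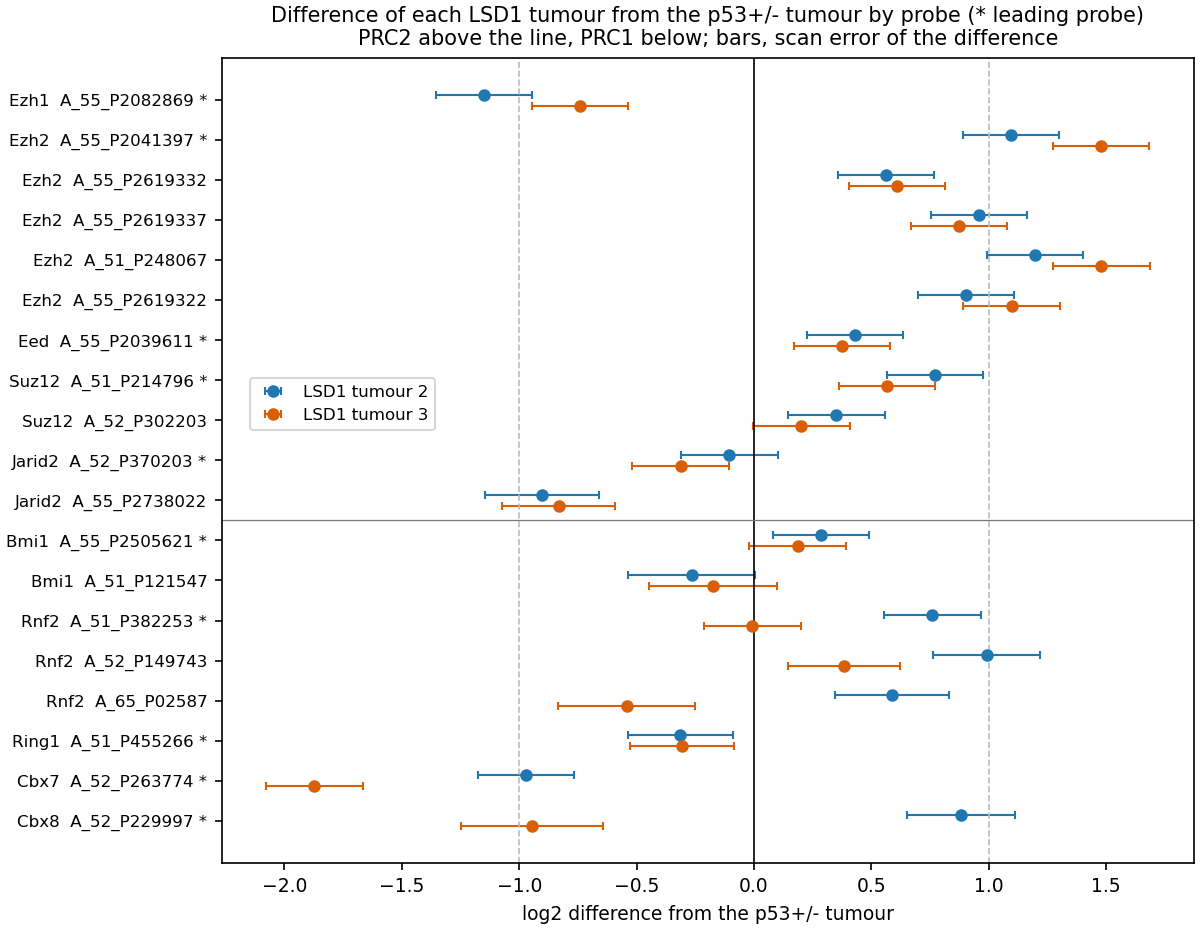
Difference in log2 units of LSD1 tumour 2 (blue) and LSD1 tumour 3 (orange) from the p53+/- tumour for each of the 19 probes, with PRC2 genes above the line and PRC1 genes below. Bars are the scan error of the difference, and dashed lines mark 2-fold. The LSD1 tumours lie close together for the PRC2 probes and apart for Rnf2, Cbx7 and Cbx8.

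In PRC1, the reader gene Cbx7 was lower in both LSD1 tumours, and Cbx8 had opposite signs in them. Cbx7, a reader abundant in stem cells and lymphocytes, has 1 probe (A_52_P263774) and read 2.68 in the control tumour, 1.36 in LSD1 tumour 2 and 0.731 in LSD1 tumour 3. It was lower in both LSD1 tumours, by 1.96-fold and 3.66-fold (mean -1.42 ± 0.65 log2, limma SE; 95% interval -3.38 to 0.53, adjusted p = 0.892). Of the genes above background on all 3 arrays, 2.34% had a lower mean difference. Cbx8 (A_52_P229997) read 0.191 in the control tumour, 0.352 in LSD1 tumour 2 and 0.0993 in LSD1 tumour 3. LSD1 tumour 2 was thus 1.84-fold above and LSD1 tumour 3 1.93-fold below the control tumour, and the mean difference was -0.03 ± 1.0 log2 (limma SE, adjusted p = 0.997). The Cbx8 level in LSD1 tumour 3 (-3.33 log2) was near the lowest level well above background on that array (-3.87). With normexp background correction Cbx8 was 1.49-fold above the control tumour in LSD1 tumour 2 and 1.47-fold below it in LSD1 tumour 3. The Cbx8 to Cbx7 ratio within an array was higher than in the control tumour in both, by 3.61-fold and 1.90-fold.

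The ligase gene Rnf2 was higher in LSD1 tumour 2 by each of its 3 probes, which name 1 transcript, and its probes disagreed on LSD1 tumour 3. The leading probe A_51_P382253 read 1.42 in the control tumour, 2.40 in LSD1 tumour 2 and 1.41 in LSD1 tumour 3. A_52_P149743 read 0.219, 0.435 and 0.285, and A_65_P02587 read 0.175, 0.264 and 0.120. LSD1 tumour 2 was above the control tumour by between 1.5-fold and 1.99-fold, while LSD1 tumour 3 stood at -0.01, 0.38 and -0.54 log2 by the same 3 probes. By every Rnf2 probe LSD1 tumour 3 was below LSD1 tumour 2, by between 1.52-fold and 2.19-fold. Ring1, the paralogue of Rnf2, read 0.385, 0.310 and 0.311 by its single probe A_51_P455266 (1.24-fold lower in each LSD1 tumour). The differences of Ring1 were below 2 scan errors. The Bmi1 probes disagreed in sign and did not leave 2 scan errors: A_55_P2505621 read 1.66, 2.02 and 1.89, and A_51_P121547 read 0.184, 0.153 and 0.163. Over the 8 PRC1 probes, 6 were lower in LSD1 tumour 3 than in LSD1 tumour 2, 5 of them by over 2 scan errors, with a median of -0.69 log2. Those 5 are the 3 repeat readings of Rnf2 with the single probes of Cbx7 and Cbx8. Over the 11 PRC2 probes that median was 0.05. Outside the members, the PRC2 genes Phf19 and Epop were also lower in LSD1 tumour 3 than in LSD1 tumour 2 (-1.19 and -0.90 log2), while Phf1 was not (0.06). By the 2-fold rule, 2 of the 8 PRC1 probes (Rnf2 A_65_P02587 and Cbx8) separated the pair, and so did 25.0% of all probes tested. Gaps of that size were thus common and not particular to PRC1. The share of all probes lower in LSD1 tumour 3 by over 2 scan errors was not taken. The medians therefore describe the member probes and not the complexes.

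Markers of T and B cells stood apart between the same tumours. All 14 T cell genes of a marker list were well above background on all 3 arrays, and their summed signal was 109 in the control tumour, 320 in LSD1 tumour 2 and 46.4 in LSD1 tumour 3. In LSD1 tumour 2, 12 of the 14 were higher than in the control tumour, while Cd8a (11.1-fold) and Cd8b1 (14.8-fold), which encode the CD8 co-receptor, were lower. In LSD1 tumour 3 all 14 were lower. The order of the sum, which those 12 genes share and the CD8 genes do not, is that of the Cbx8 signal and of Rnf2 A_65_P02587. The leading Rnf2 probe did not order the control tumour and LSD1 tumour 3 (-0.0068 log2, within the scan error), and A_52_P149743 had another order. How many of all genes share this order was not counted. Of 11 B cell genes, all were lower in both LSD1 tumours, with sums of 302, 43.1 and 153, and Fcer2a alone was not well above background on every array. The Ezh1 signal had the order of these sums, but so did the dendritic cell and macrophage sums below. Ring1, Jarid2 A_55_P2738022 and Bmi1 A_51_P121547 had it too, each with the LSD1 tumours within the scan error of each other. The sums of 6 dendritic cell genes were 12.1, 4.24 and 4.97, with Xcr1 and Cd209a below that mark on some arrays. Those of 10 erythroid genes were 875, 603 and 1283. Most of the erythroid sum came from Hba-a1, at 609, 415 and 686. Of the 10 erythroid genes, 9 had opposite signs in the LSD1 tumours and Tfrc was higher in both. Sums of 10 neutrophil genes were 148, 300.4 and 278, and of these Cxcr2 alone was lower in both LSD1 tumours (2.28-fold and 5.94-fold). Sums of 10 macrophage genes were 264, 205 and 234, and of 6 NK cell genes 27.7, 23.4 and 7.26. Siglec1 and Ncr1 were not above background on every array. Within the macrophage list 6 of 10 genes had opposite signs in the LSD1 tumours: Marco and Timd4 were 7.43-fold and 15.4-fold lower in LSD1 tumour 3, and Hmox1, Spic and Cd68 were higher there. Most of the NK cell sum came from Gzma, at 20.5, 20.6 and 4.40, while Klrd1 was lower in both, at 4.21, 0.561 and 0.867. The part of these cells in the Polycomb differences was not tested.

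**Figure D3:**
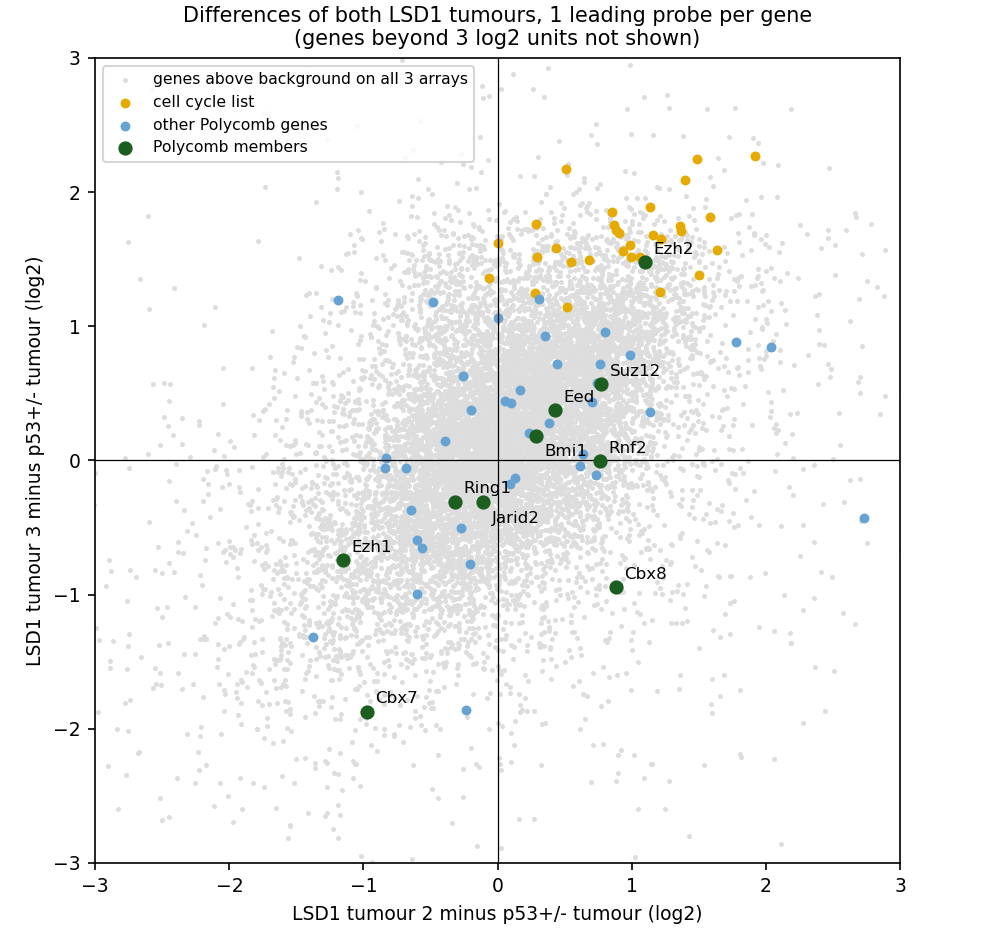
Log2 difference from the p53+/- tumour of LSD1 tumour 2 (horizontal axis) and LSD1 tumour 3 (vertical axis), by leading probe, for the 12812 genes above background on all 3 arrays (grey, within 3 log2 units), the cell cycle list (yellow), the other Polycomb genes tested (blue) and the 10 members (green, named). Both axes share the p53+/- array. Ezh2 at 1.1 and 1.48 lies among the cell cycle genes, and Cbx7 at -0.97 and -1.87 is the lowest member in LSD1 tumour 3.

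Genes with nearly the same pair of differences were sought for the highest and the lowest member, each by its leading probe. The measure was Euclidean distance over the 2 differences, that is over 3 arrays. Nearest to Ezh2 were Rfc5, a subunit of the replication clamp loader (distance 0.01), Ticrr, a regulator of replication start, and Rnaseh2b, a subunit of ribonuclease H2 (0.03 each). A total of 21 of 12811 genes lay within 0.1 log2 of Ezh2. For Cbx7 the nearest were Card6 (0.05), Phxr4 (0.07) and Calhm2 (0.08), and 4 genes lay within 0.1.

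The other Polycomb genes followed no single direction. Of 41 listed genes of PRC2, PRC1 and the H2A deubiquitinase complex PR-DUB, 39 were tested, since no named probe of Auts2 or Asxl3 was well above background. In both LSD1 tumours 18 of the 39 were higher and 10 lower, beside 38.9% and 27.8% of all genes, with medians of 0.10 and 0.28 log2. The authors' value table turned this split to 10 higher and 14 lower. None passed limma's adjusted threshold. Among 9 further PRC2 genes, 5 were higher and 2 lower in both (medians 0.74 and 0.36 log2). Phf19, a Polycomb-like protein that binds methylated H3K36, read 0.467 in the control tumour, 1.92 in LSD1 tumour 2 and 0.841 in LSD1 tumour 3, and was 4.12-fold and 1.80-fold higher. Its paralogue Phf1 read 3.35, 1.29 and 1.34 and was 2.60-fold and 2.49-fold lower, the single Polycomb gene outside the members at least 2-fold lower in both. Epop, a PRC2 partner that links it to elongin, read 0.624, 2.14 and 1.15, and was 3.43-fold and 1.84-fold higher. Adjusted p was 0.892 in limma for each of these 3.

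Among 23 further PRC1 genes tested, 10 were higher and 5 lower in both, and Pcgf2 and Scml2 were not above background on every array. Cbx2, another reader of the PRC2 mark, read 0.133 in the control tumour, 0.882 in LSD1 tumour 2 and 0.0985 in LSD1 tumour 3. Like Cbx8 it was higher in LSD1 tumour 2 (6.64-fold) and lower in LSD1 tumour 3 (1.35-fold). Scml4 read 2.70, 2.29 and 0.741 and was 1.18-fold and 3.64-fold lower, its other probe having the opposite sign in LSD1 tumour 2 (0.14 log2). Of 7 PR-DUB genes tested, 3 were higher and 3 lower in both. Foxk2, a forkhead partner of the deubiquitinase Bap1, was 1.98-fold and 1.72-fold higher, Mbd6 1.56-fold and 1.29-fold lower and Foxk1 1.21-fold and 1.41-fold lower.

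**Figure D4:**
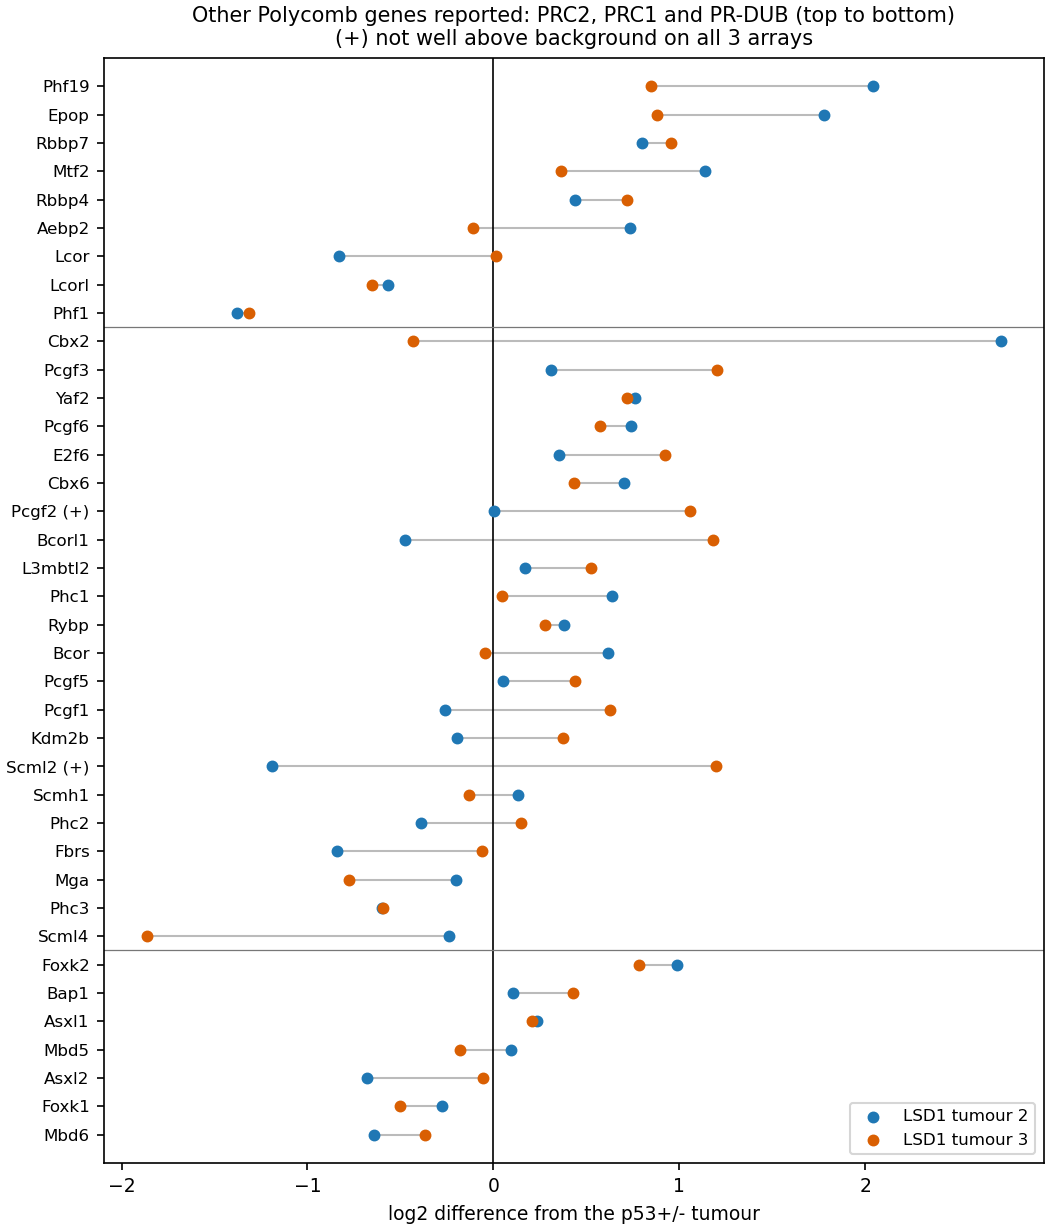
Log2 difference from the p53+/- tumour of LSD1 tumour 2 (blue) and LSD1 tumour 3 (orange) for the other Polycomb genes reported here by leading probe, in the order PRC2, PRC1 and PR-DUB, each sorted by mean difference. Grey lines join the LSD1 tumours and a plus sign marks genes not above background on all 3 arrays. Phf19 and Epop lead the PRC2 group, Phf1 is its lowest gene, and Cbx2 lies 2.73 above and 0.43 log2 below (-0.43) the p53+/- tumour in the LSD1 tumours.

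The genes of the demethylases that remove the PRC2 mark were lower in both LSD1 tumours, as were 27.8% of all genes tested. Kdm6b read 0.915 in the control tumour, 0.493 in LSD1 tumour 2 and 0.622 in LSD1 tumour 3 (1.86-fold and 1.47-fold lower), and Kdm6a 0.338, 0.249 and 0.268 (1.36-fold and 1.26-fold lower). Genes known as Polycomb targets differed from each other in direction. Cdkn2a read 0.123, 25.2 and 23.5 in the same order, and Cdkn2b, its neighbour and also an inhibitor of cyclin-dependent kinases, 0.175, 0.343 and 1.08. Hoxa7 of the HoxA cluster was lower in both, at 0.367, 0.136 and 0.122 (2.70-fold and 3.00-fold). Hoxa5 and Hoxa9, named after their values were seen, stood at -0.47 and 1.76 log2 and at 0.09 and 0.92 log2, and Hoxa10 had no named probe well above background.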

How the data were processed

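The deposited scan files come from Agilent Feature Extraction 11.5.1.1, named in both their headers and the submitters' processing notes. Their processed signal is an intensity after background subtraction and spatial detrending by that software, per the file headers, and is not scaled between arrays. Its error estimate, the median pixel intensity and the spot flags, all deposited, were also used. In a second deposited table the authors gave the same intensities times 1 factor per array (1.06, 0.779 and 0.902), with its basis not given in the sources used here. Its column medians were 64.2, 54.2 and 43.5.

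Signals were divided by the array's 75th percentile (608, 712 and 554), averaged over spots of a probe without outlier spots, and taken as log2. Probes were named through RefSeq accessions in a gene table of GRCm38.p6 (25126 of 47837 identifiers matched). Probes named otherwise were not used as members. Since the array files name mm9, the text gives coordinates for the promoter windows only, on GRCm38.p6. The fit took the 32889 probes that reached the mark for background on 1 array or more, with limma 3.58.1 (lmFit, eBayes) in R 4.3.3, with Benjamini-Hochberg adjustment, and the step was tested on simulated data. Members, lists and tests were chosen with earlier results of these data known. Beyond the members, the genes named were Kdm1a, Trp53, Cdkn2a, Cdkn2b, up to 3 per Polycomb list and 4 of the cell cycle list, by size of mean difference, and the nearest genes. The rule also gave 1 gene that is not reported here. The number of arrays limits precision, and nothing in the labels says whether the samples had separate origins beyond their numbers. The limma p-values rest on the spread between the LSD1 tumours, moderated by a spread pooled over all tested probes. They hold nothing on the spread between control tumours.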

Additional observations from a re-analysis of the deposited data

How the results depend on the processing

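In these alternatives limma called 0 probes each time, and member adjusted p ran from 0.466 to 0.998. The authors' value table shifted the all-gene median from 0.05 and 0.16 log2 to -0.16 and -0.20 in LSD1 tumours 2 and 3. Relative to those medians the leading Ezh2 probe stood at 1.04 and 1.32, Ezh1 at -1.20 and -0.90 and Cbx7 at -1.02 and -2.03. These values are the same in either table by construction, since the tables differ by 1 factor per array, so their match is no check of the result. The share of genes higher in both was 23.3% there. Members at least 2-fold higher in both numbered 0 in the authors' table and 0 with a gene as the mean of its probes. Members at least 2-fold lower in both numbered 2 with quantile normalization, 2 in the authors' table and 1 with the percentile over probes detected on all arrays. With 1 LSD1 tumour left out the rule asks for the remaining tumour only, so its counts can only rise. It then gave 1 member each time, Cbx7 without LSD1 tumour 2 and Ezh1 without LSD1 tumour 3, beside 1749 and 1750 of 15240 genes. Members 2-fold apart numbered 2 in the authors' table and 2 with the detected-probe percentile. Other Polycomb genes higher in both numbered 10 in the authors' table and those lower 14. Those lower in the remaining tumour numbered 15 without LSD1 tumour 2 and 16 without LSD1 tumour 3, beside 41.9% and 47.0% of all genes tested.

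Directions turned for Eed in LSD1 tumour 3 (quantile, -0.030), for Suz12 A_52_P302203 (authors' table, -0.16 in LSD1 tumour 3 and -0.013 in the mean; detected-probe percentile, -0.029), for Bmi1 A_55_P2505621 (authors' table, -0.18 and -0.054 in the mean; percentile, -0.046), for Rnf2 A_65_P02587 in the mean (-0.27, -0.13) and for Cbx8 in the mean (normexp 0.012, quantile 0.071). With either LSD1 tumour left out, the means ranged from -0.0068 to 0.76 for Rnf2 A_51_P382253, from -0.54 to 0.59 for Rnf2 A_65_P02587 and from -0.95 to 0.88 for Cbx8, turning without tumour 2, 2 and 3. For the genes beyond the members that the naming rule gave, 4 settings added after seeing the data turned none of 20 mean directions. Leaving out an LSD1 tumour, or taking slide as a block, leaves no residual degrees of freedom, so no such test was run. With slide as a block the difference equals that of LSD1 tumour 3. No paired analysis was possible because the groups share no replicate number. Depth: every member probe was well above background, with scan errors up to 17.5% for the dimmest.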
